A study of Mus musculus with 6 samples.

Results

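The vascular endothelial growth factor (VEGF) family was followed in hearts of male mice in which the human SRY gene was either active (hSRY-ON) or silent (hSRY-OFF). The genes described are the ligands Vegfa, Vegfb, Vegfc, Figf (now Vegfd) and Pgf and the receptors Flt1, Kdr, Flt4, Nrp1 and Nrp2. They are 10 of the 18138 gene symbols on the array and have 17 of its 25697 probes, and every probe that carried the symbol was taken. The 10 genes were chosen from known results of the same comparison, in which Pgf stood out, so their differences between the groups are given as a description and not as a test.

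Gene expression was measured in hearts at postnatal day 6 (P6), strain FVB, with 3 hearts in each group and 1 array for each heart. Both groups descend from crosses with a responder line in which a FLAG-tagged human SRY-IRES-EGFP cassette sits as a single copy at the H11 locus behind the CAG promoter, separated from it by a floxed DsRed2 gene. In hSRY-ON pups this DsRed2 gene had been removed in the fertilised egg by Cre protein carried over from oocytes of Ddx4-Cre mothers, and the pups chosen did not carry Ddx4-Cre themselves. CAG is active in nearly all cell types, so the transgene was not confined to a cell type of the heart. The methods define hSRY-OFF as the transgene without recombination, whereas the study's account of its results names littermates with Ddx4-Cre alone or with no transgene as controls, so the genotype of the control hearts is uncertain. Expression of the transgene itself was not analysed here.

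VEGF ligands are secreted dimers of the cystine-knot superfamily. Vegfa acts on the receptor tyrosine kinase Kdr to drive endothelial division, migration and permeability, and Flt1 binds Vegfa with higher affinity but signals more weakly, so that it also acts as a decoy. Pgf (placental growth factor) and Vegfb bind Flt1 and not Kdr, whereas Vegfc and Figf bind Flt4, the receptor of lymphatic endothelium. The neuropilins Nrp1 and Nrp2 are co-receptors for VEGF ligands and receptors for class 3 semaphorins. In the heart, cardiomyocytes are a main source of Vegfa and Vegfb, and the receptors are found chiefly on endothelial cells.

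The 3 ligands with the largest differences were Pgf, Vegfb and Vegfa. The bases upstream of the first start listed for each in RefSeq's promoter table are printed to show what sequence lies there. For Pgf this start lies within the annotated gene, which extends on to chr12:85177785, so the printed window is not upstream of the whole gene. RefSeq's promoter table for GRCm38.p6 held all 10 genes, in 12 windows of 250 bases before a start. Each sequence reads 5′ to 3′ on the gene's own strand, the minus strand in all 3, and ends just before the start. Capitals mark GCGTG on either strand, so that CACGC is the same motif on the other strand.
Pgf, chr12:85177314-85177563: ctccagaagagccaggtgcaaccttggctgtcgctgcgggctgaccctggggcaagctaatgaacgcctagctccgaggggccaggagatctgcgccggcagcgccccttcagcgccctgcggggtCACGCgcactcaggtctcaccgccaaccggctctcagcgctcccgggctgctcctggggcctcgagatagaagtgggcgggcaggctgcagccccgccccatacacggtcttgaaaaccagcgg
Vegfb, chr19:6987652-6987901: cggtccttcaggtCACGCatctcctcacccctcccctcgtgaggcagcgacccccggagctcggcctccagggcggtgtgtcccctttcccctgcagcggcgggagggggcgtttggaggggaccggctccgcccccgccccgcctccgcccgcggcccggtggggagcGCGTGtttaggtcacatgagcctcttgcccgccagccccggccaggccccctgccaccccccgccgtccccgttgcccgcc
Vegfa, chr17:46032378-46032627: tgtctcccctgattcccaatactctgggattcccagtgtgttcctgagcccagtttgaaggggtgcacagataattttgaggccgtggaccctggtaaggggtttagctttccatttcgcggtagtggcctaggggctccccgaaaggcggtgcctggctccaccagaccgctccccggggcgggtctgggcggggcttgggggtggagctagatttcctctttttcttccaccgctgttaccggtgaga
The printed window of Pgf had a GC content of 68.4%, that of Vegfb 76.4% and that of Vegfa 59.2%, against a median of 52.4% over all 32851 windows. Hypoxia-inducible factors (HIF) bind a core that reads ACGTG in many of their sites and GCGTG in others. The second form was present 1 time in the printed window of Pgf, 124 bases before the start, and 2 times in that of Vegfb. It was found in 28.2% of all windows. Neither form was in the printed window of Vegfa, while a second window of this gene, at chr17:46025164-46025413, held each form 1 time. That second window lies within the annotated gene, which extends from chr17:46016993 to 46032377, so it is not upstream of the whole gene. The first form was found in 16.6% of all windows. GGGCGG, the GC box, occurred 2 times in the printed windows of Pgf and of Vegfa and 4 times in that of Vegfb, and in 32.7% of all windows. A second window of Pgf, at chr12:85175983-85176232 and also within the gene, held neither HIF form and no GC box. AACAAT, a core bound by SRY and SOX proteins, was in none of the 12 windows and in 9.42% of all. Both strands were searched, and no motif overlapped another in the printed windows. These matches describe letters in short windows, not binding.

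Each array detected 47.2% to 51.3% of its probes, where detection means a p-value under 0.05 relative to negative-control beads. Mean intensity was lowest for hSRY-OFF replicate 3 (631.3) and lay between 723 and 938.8 elsewhere. Values below are log2 intensities after background correction and quantile normalization, and a difference is always hSRY-ON minus hSRY-OFF with its standard error (SE). Of 12970 probes detected on at least 3 of the 6 arrays, 27.5% differed between the groups at an adjusted p under 0.05 in limma, 13.8% higher and 13.7% lower in hSRY-ON, and in 45.2% the hearts of the groups did not overlap. The median difference was 0.00 and the median absolute difference 0.30. The groups therefore differed widely across the array, and the counts below stand against that background. Heart tissue was measured in bulk, so fewer cells of a type and less RNA per cell cannot be told apart.

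Of the 17 probes, 11 passed the filter, covering 9 of the 10 genes, and 9 of the 17 were detected on all 6 arrays. Among these 11, 1 was past the threshold and higher in hSRY-ON (Pgf) and 3 were past it and lower (a Vegfa probe, Vegfb and an Nrp2 probe). Over all tested probes, 13.8% were past it and higher and 13.7% lower. The hearts of the groups did not overlap in 6 of the 11, beside 45.2% of all tested probes. The other 6 of the 17 probes were detected on too few arrays, 4 of them on none. The filter itself favours probes that are bright in a whole group, so these counts describe the probes and support nothing further. Ligands and receptors are described apart below.

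Pgf encodes placental growth factor, a ligand of Flt1 that is low in most healthy adult tissues. Its normalized log2 intensity was 5.01, 5.93 and 6.003 in the hSRY-OFF hearts (replicates 1 to 3 in that order, as in all such triplets here) and 10.42, 10.18 and 10.25 in the hSRY-ON hearts. All hSRY-ON hearts were far above all hSRY-OFF hearts, and the hSRY-ON hearts lay closer together (10.28 ± 0.12, SD, n = 3) than the hSRY-OFF hearts (5.65 ± 0.56). The deposited intensities, before any correction, were 174, 228 and 173 in hSRY-OFF and 1406, 1288 and 1291 in hSRY-ON hearts. In hSRY-OFF replicate 1 the probe was not above background, with a detection p-value of 0.159, and it was detected on the other 2 hSRY-OFF arrays. The difference was 4.64 (SE 0.26), a 24.9-fold higher level in hSRY-ON, and over the 9 pairs of an hSRY-ON with an hSRY-OFF heart it ran from 4.17 to 5.41. Because the hSRY-OFF level was close to background, the size of the fold depended on how background was removed: the difference was 2.89 on intensities without background correction. It was the fourth largest increase among the tested probes, with Aqp8 (4.79, SE 0.68) just above it and Cldn23 (4.62, SE 0.30) just below, and 0.0463% of tested probes had a larger absolute difference.

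**Figure D1:**
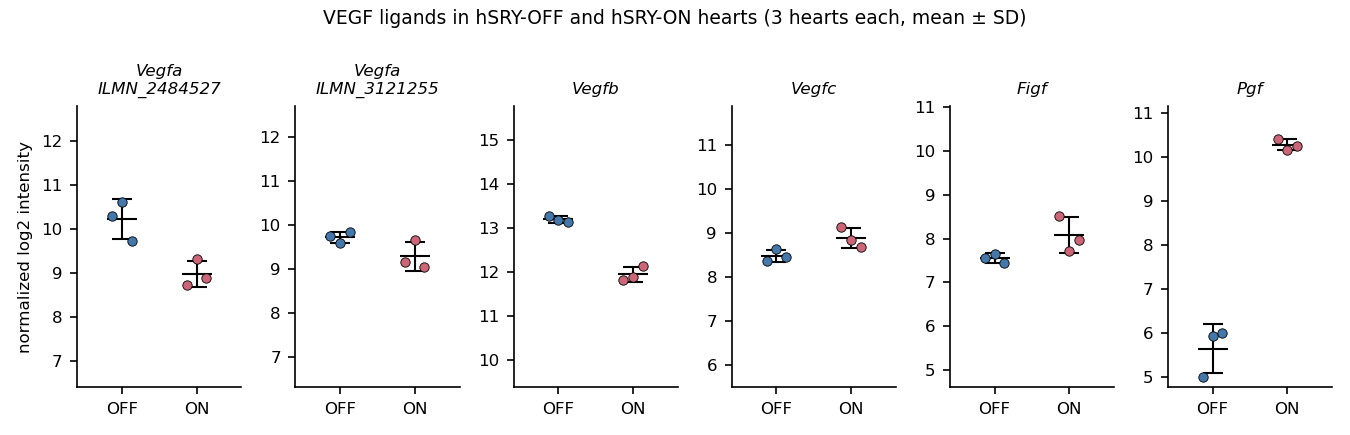
Normalized log2 intensity (y axis) of the 6 tested ligand probes in hSRY-OFF and hSRY-ON hearts. Each point is a heart, the horizontal line is the mean of 3 hearts and the bars are ± SD; every panel spans the same number of log2 units. Pgf moved from 5.65 to 10.28, Vegfb from 13.21 to 11.96, and the other panels show smaller shifts.

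Vegfa, the ligand that starts new vessel growth through Kdr, had 3 probes on the array. Probe ILMN_2484527 read 10.29, 10.62 and 9.72 in hSRY-OFF and 8.72, 9.30 and 8.88 in hSRY-ON hearts. Every hSRY-ON heart was below every hSRY-OFF heart, with a difference of -1.24 (SE 0.25), or 2.37-fold lower in hSRY-ON. Probe ILMN_3121255 gave 9.75, 9.58 and 9.83 in hSRY-OFF and 9.16, 9.65 and 9.03 in hSRY-ON hearts. Here hSRY-ON replicate 2 lay among the hSRY-OFF hearts, and the difference of -0.44 (SE 0.18) did not pass the threshold, although it did without that heart (-0.62). The 2 probes therefore disagreed in size: the first minus the second ran from -0.10 to 1.04 in hSRY-OFF hearts, but from -0.44 to -0.15 in hSRY-ON hearts. Which exons or isoforms each probe reads is not given in the files used here. The third probe, ILMN_3045723, did not rise above background on any array.

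Vegfb, a ligand of Flt1 that is abundant in cardiac muscle and linked to coronary vessels and fatty acid uptake, was read by 1 probe. It stood at 13.29, 13.20 and 13.14 in hSRY-OFF and at 11.83, 11.90 and 12.14 in hSRY-ON hearts. The groups were clearly apart and each was tight, with means of 13.21 ± 0.08 and 11.96 ± 0.16 (SD, n = 3 each). The difference was -1.25 (SE 0.13), 2.38-fold lower in hSRY-ON, and between -1.46 and -0.995 over the 9 pairs of hearts. Among all tested probes, 5.76% had a larger absolute difference than Vegfb, and 5.84% had a larger one than the first Vegfa probe.

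The lymphatic ligands Vegfc and Figf, both ligands of Flt4, differed less. Vegfc measured 8.37, 8.64 and 8.45 in hSRY-OFF and 9.14, 8.85 and 8.69 in hSRY-ON hearts. All hSRY-ON hearts were higher, but by as little as 0.05 between the closest pair, and the difference of 0.41 (SE 0.15) did not pass the threshold. Under scaling to the median of the detected probes it passed, at 0.51. Figf read 7.56, 7.66 and 7.45 in hSRY-OFF and 8.52, 7.72 and 7.97 in hSRY-ON hearts. The hSRY-ON hearts were again all higher but spread widely, from 7.72 to 8.52, and the difference of 0.52 (SE 0.21) did not pass the threshold unless hSRY-ON replicate 2, the lowest of them, was left out (0.69). Over the 6 tested ligand probes, the hearts of the groups did not overlap in 5, beside 45.2% of all tested probes. The median difference was -0.01, with Pgf, Vegfc and Figf above 0 and both Vegfa probes and Vegfb below.

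Flt1 is the receptor that Pgf, Vegfb and Vegfa share. Probe ILMN_1227926 gave 10.21, 10.27 and 10.08 in hSRY-OFF and 10.24, 10.72 and 10.30 in hSRY-ON hearts. Both groups overlapped, with hSRY-ON replicate 2 the highest heart, and the difference was 0.23 (SE 0.16, 95% interval -0.14 to 0.60), which did not pass the threshold. The interval leaves room for a modest difference in either direction and does not reach the size seen for Pgf. A second Flt1 probe, ILMN_2732721, was above background on 1 hSRY-ON array and no hSRY-OFF array and was not tested.

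Kdr, the main signalling receptor for Vegfa on blood endothelium, had a single probe, ILMN_2665788, with deposited intensities of 139.6 to 182. No array showed it above background, so its level cannot be compared between the groups here. Endothelial genes were otherwise well measured in the same hearts, as described further below.

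Flt4, the receptor for Vegfc and Figf, was close to background in both groups. Probe ILMN_2611439 read 5.92, 5.55 and 6.21 in hSRY-OFF and 5.50, 5.86 and 6.07 in hSRY-ON hearts, with full overlap. Its difference was -0.09 (SE 0.21, 95% interval -0.58 to 0.41), and its sign changed among the alternative settings (-0.17 to 0.05). The second Flt4 probe was above background on no array.

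Nrp1, the co-receptor that strengthens Vegfa binding to Kdr, was measured by 2 probes. ILMN_1237197 gave 11.76, 11.93 and 11.93 in hSRY-OFF and 11.91, 11.47 and 11.48 in hSRY-ON hearts. ILMN_2669912 gave 11.67, 11.99 and 11.77 in hSRY-OFF and 11.94, 11.25 and 11.53 in hSRY-ON hearts. In both, hSRY-ON replicate 1 lay with the hSRY-OFF hearts and the other 2 hSRY-ON hearts below them. The differences were -0.25 (SE 0.15, 95% interval -0.61 to 0.11) and -0.24 (SE 0.19, 95% interval -0.68 to 0.21), and neither passed the threshold.

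Nrp2, the co-receptor associated with lymphatic and venous endothelium, had 3 probes, of which ILMN_3136656 was tested. It read 5.69, 5.88 and 6.03 in hSRY-OFF and 4.74, 5.07 and 4.98 in hSRY-ON hearts. The groups did not overlap, and the probe was above background in all 3 hSRY-OFF hearts and in no hSRY-ON heart. The hSRY-ON level therefore has only an upper bound, which on the background-corrected scale makes it at least 1.45-fold lower in hSRY-ON than in hSRY-OFF (fitted difference -0.94, SE 0.15). This bound leaves out sampling error and holds for that background correction alone, since the difference was -0.27 on intensities without it. Of the other Nrp2 probes, ILMN_2766737 was above background on 1 hSRY-OFF array and ILMN_2730813 on none. Over the 5 tested receptor probes of 4 genes, the Nrp2 probe alone had groups that did not overlap, beside 45.2% of all tested probes. The median difference was -0.24.

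**Figure D2:**
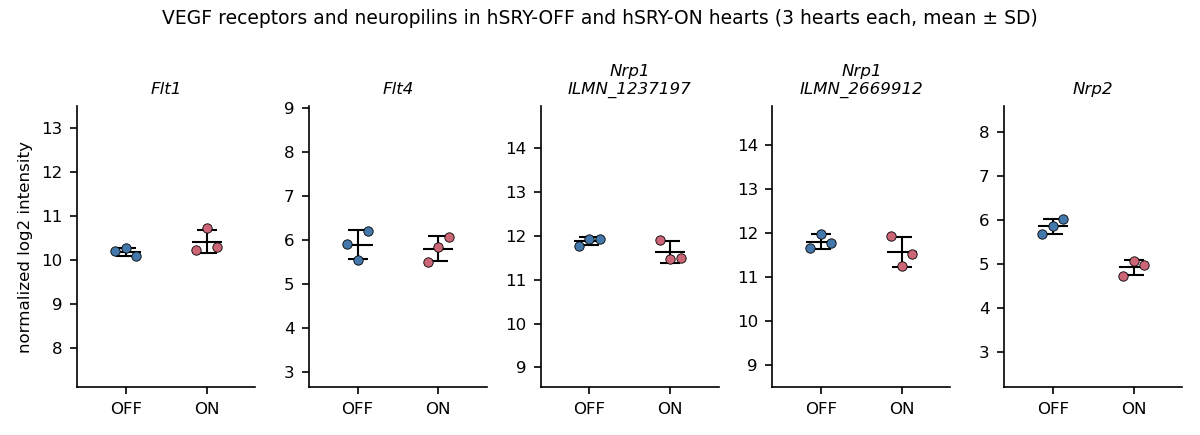
Normalized log2 intensity (y axis) of the 5 tested receptor and neuropilin probes in hSRY-OFF and hSRY-ON hearts. Points are hearts, lines are means of 3 hearts and bars are ± SD, and every panel spans the same number of log2 units. The groups overlap except in Nrp2, whose hSRY-ON values (4.74 to 5.07) were not above background.

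**Figure D3:**
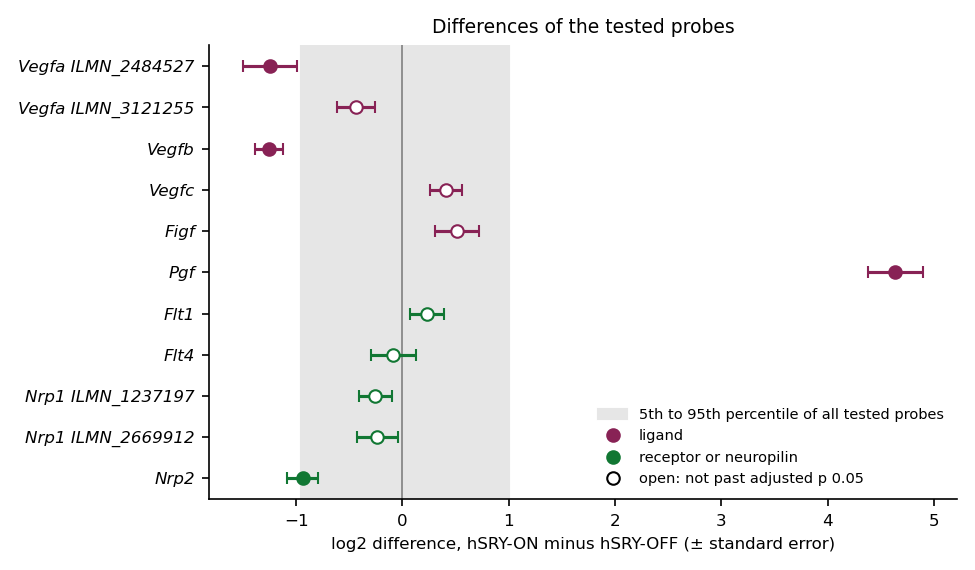
Log2 difference (x axis, hSRY-ON minus hSRY-OFF, ± SE, 3 hearts a group) of the 11 tested probes of the ligands and receptors. Filled points passed the adjusted p of 0.05, the grey band runs from -0.95 to 1.001, the 5th to the 95th percentile of all 12970 tested probes, and Pgf at 4.64 lies far outside it.

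The order of the differences placed Pgf at 4.64, then Figf (0.52), Vegfc (0.41) and Flt1 (0.23) above 0. Figf and Vegfc differed from each other by less than either SE. On the lower side, Vegfb (-1.25) and the first Vegfa probe (-1.24) were level with each other within their errors. Both called Vegfa and Vegfb differences kept their direction and their call under all 16 alternatives, and Pgf kept its own under the 15 in which it could be fitted. The exception was the filter that asks for detection on all 6 arrays, which removes the Pgf and Nrp2 probes. The Nrp2 probe also fell out of the test at a detection p of 0.01 and whenever any hSRY-OFF heart was left out.

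As a description of likeness, all tested probes of other genes were ranked by Pearson correlation with Pgf over the 6 arrays. The 5 closest were D12Ertd553e (0.9991), Rab15 (0.9976), D930028F11Rik (0.9973), Phactr1 (0.997) and Clec4n (0.9965), and all 5 were higher in hSRY-ON, by 0.90 to 3.53 on the log2 scale. For the first Vegfa probe the closest were Mrps30 (0.9981), 1810011O10Rik (0.9964), Mospd1 (0.9964), Pold3 (0.9946) and Tec (0.9939), lower in hSRY-ON by a log2 difference of -0.98 to -0.47. These correlations over 6 arrays in 2 groups mostly repeat the difference between the groups.

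Downstream of the receptors, 38 of 46 genes of VEGF signal transduction were tested, each by its brightest probe. Of these, 6 rose and 7 fell in hSRY-ON, beside 14.9% and 13.9% of all 9660 tested genes, and the median difference was 0.06. Src, the kinase that couples Kdr to permeability, rose by 1.33 (SE 0.17, adjusted p = 0.00152 in limma) on 1 of its 2 tested probes, the other reading 0.08. Dok2, an adaptor (0.98, SE 0.26, adjusted p = 0.0261), and Ptpn11, a phosphatase that relays receptor signals (0.66, SE 0.14, adjusted p = 0.0116), rose as well. The largest decreases were in Ptprb, the endothelial phosphatase that restrains Kdr and Tek (-1.03, SE 0.20, adjusted p = 0.00769), Rcan1, a calcineurin inhibitor induced by Vegfa (-0.91, SE 0.24, adjusted p = 0.0275), and Prkca, a protein kinase C (-0.74, SE 0.15, adjusted p = 0.0102). The kinases Akt1 (0.12) and Mapk14 (-0.31), Pik3r1 (0.13), a regulatory subunit of PI3 kinase, and Nos3, which makes nitric oxide (-0.40), did not pass the threshold. The number of called genes in this list depended on single hearts: 13 in all hearts became 4 and 5 without hSRY-OFF replicates 1 and 2, and 5, 8 and 8 without hSRY-ON replicates 1, 2 and 3. Src, Ptprb and Prkca kept their call throughout, and Dok2, Ptpn11 and Rcan1 lost it in 1 or more settings.

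Other vessel pathways that act with VEGF were counted from a list of angiopoietin, Tie, apelin and Notch tip cell genes, 23 of 28 tested. In hSRY-ON, 7 rose and 6 fell, beside 14.9% and 13.9% of all tested genes, with a median difference of -0.24. Angpt2, which destabilises vessels and acts with Vegfa, rose by 1.10 (SE 0.23, adjusted p = 0.0108), while Angpt1, the stabilising ligand of Tek, fell by 0.87 (SE 0.16, adjusted p = 0.00721). The Angpt1 probe was dim (mean 6.77 in hSRY-OFF and 5.91 in hSRY-ON), and its difference ran from -0.97 to -0.32 among the alternative settings. Thbs1 (1.27, SE 0.20, adjusted p = 0.00362) and Adamts1 (1.17, SE 0.29, adjusted p = 0.0223), both inhibitors of vessel growth, rose. The apelin receptor Aplnr (-1.28, SE 0.25, adjusted p = 0.00904) and the chemokine receptor Cxcr4 (-1.04, SE 0.26, adjusted p = 0.0217) fell. The called genes numbered 7 rather than 13 without hSRY-OFF replicate 1 and also without hSRY-OFF replicate 2, and Adamts1 and Cxcr4 lost their call without either heart. Of the class 3 semaphorins and plexins, which bind or partner the neuropilins, 6 of 16 were tested and none passed the threshold in limma (1 had an unadjusted p under 0.05), though 1 passed, higher in hSRY-ON, without hSRY-ON replicate 1 and in 6 settings that kept all hearts, and 1 passed, lower in hSRY-ON, without hSRY-ON replicate 2.

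Vegfa and Flt1 are known targets of HIF, and genes of that pathway were counted beside them. Among HIF factors, Hif1a (-0.24, SE 0.21), Epas1 (-0.34, SE 0.14) and Arnt (0.29, SE 0.17) did not pass the threshold. Hif3a was above background on all 3 hSRY-ON and no hSRY-OFF arrays. It entered the test only through the hSRY-ON hearts, so its call supports nothing further. Its mean was at least 1.22-fold higher in hSRY-ON on the background-corrected scale, a bound that leaves out sampling error (fitted difference 1.06, SE 0.25). The call was lost without hSRY-OFF replicate 1 or 2, and the probe was not tested without an hSRY-ON heart. Of 19 tested HIF target genes other than the VEGF family, 6 rose and 1 fell, beside 14.9% and 13.9% of all tested genes. Their median difference was -0.11. Slc2a1, a glucose transporter, rose by 1.27 (SE 0.28, adjusted p = 0.0129), Hmox1, a haem oxygenase, by 1.15 (SE 0.17, adjusted p = 0.00258) and Ddit4, an inhibitor of mTOR signalling, by 1.25 (SE 0.39, adjusted p = 0.0475), while the glycolytic enzyme Aldoa fell by 0.67 (SE 0.15, adjusted p = 0.013). Slc2a1 and Hmox1 kept their call in every setting, Ddit4 lost it in 6, among them each hSRY-OFF heart left out, and Aldoa lost it without hSRY-OFF replicate 1, where 4 of the 19 passed.

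**Figure D4:**
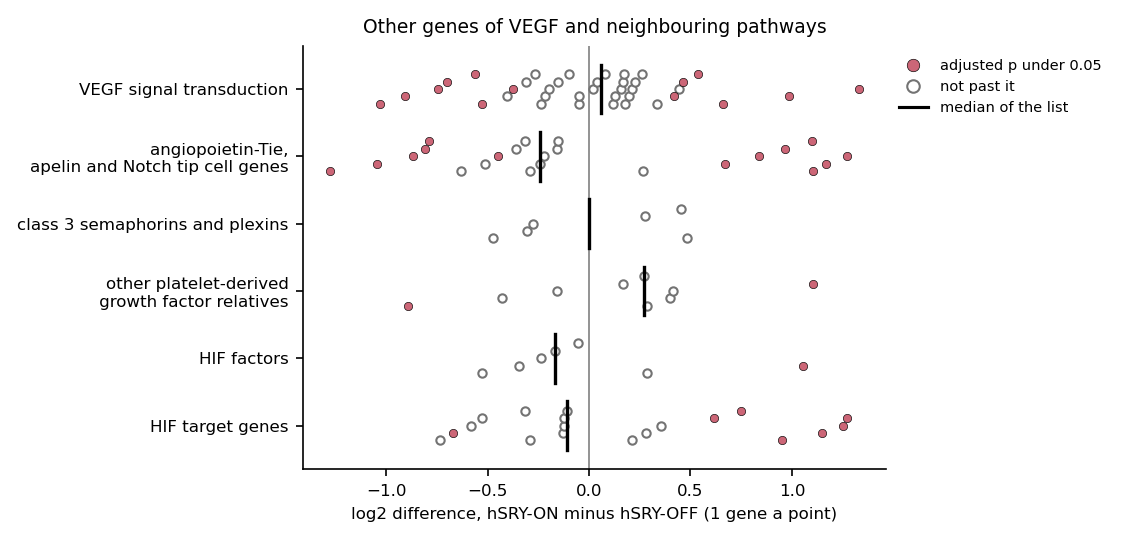
Log2 difference (x axis, hSRY-ON minus hSRY-OFF, 3 hearts a group) of the tested genes of 6 pathway lists (rows), 1 point a gene by its brightest probe. Filled points passed the adjusted p of 0.05 in limma and the black bar is the median of the list. Filled points lie on both sides of 0 in VEGF signal transduction (6 and 7) and in the angiopoietin list (7 and 6).

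Cells that carry the receptors were followed by their markers. Of 22 tested blood endothelium markers, 4 rose and 11 fell, beside 14.9% and 13.9% of all tested genes, with a median difference of -0.44. The background-corrected intensities of the list summed to 55953 to 59550 per hSRY-OFF heart and 49147 to 54874 per hSRY-ON heart. Pecam1, the pan-endothelial adhesion molecule, differed by 0.01 (SE 0.14), Cdh5, the endothelial cadherin, fell by 0.72 (SE 0.15, adjusted p = 0.0109 in limma) and Emcn, a capillary and venous sialomucin, rose by 0.53 (SE 0.14, adjusted p = 0.0255). The endothelial genes thus did not move as a block. Plvap, a component of fenestrae and caveolae that Vegfa is known to induce, rose most (1.66, SE 0.20, adjusted p = 0.00122), followed by Vwf (1.32, SE 0.24, adjusted p = 0.00658) and Eng (0.75, SE 0.15, adjusted p = 0.00877). Cldn5, the tight junction claudin, fell most (-1.48, SE 0.21, adjusted p = 0.00213), followed by Aplnr and Cd93 (-0.86, SE 0.25, adjusted p = 0.0409). Calls in this list went from 15 to 9 without hSRY-OFF replicate 1 and without hSRY-ON replicate 1, and to 7 without normalization between arrays, and Emcn and Cd93 lost theirs in several of these settings. Aplnr, Tek and Tie1 also stand in the angiopoietin list. Erg was detected on 1 array, Fabp4 on 2 and Clec14a on none. The part of endothelial content in the values of Flt1, Nrp1 and Nrp2 was not tested.

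Of 8 tested lymphatic markers, 2 rose and 2 fell, beside 14.9% and 13.9% of all tested genes. Their intensities summed to 3008 to 3257 per hSRY-OFF heart and 3498 to 3640 per hSRY-ON heart. Bright probes weigh most in such a sum, and the brightest in hSRY-ON was Prox1 (mean 10.62, against 9.71 in hSRY-OFF). The higher sum therefore does not show a rise across the list. Prox1, the factor that sets lymphatic identity and is also made in cardiomyocytes, rose by 0.91 (SE 0.12, adjusted p = 0.00192 in limma), and Angpt2, which the angiopoietin list also holds, rose by 1.10. Lyve1, shared with tissue macrophages, differed by 0.81 (SE 0.32) and did not pass the threshold. Ccl21a, the lymphatic chemokine (-1.28, SE 0.35, adjusted p = 0.0329), and Reln (-0.59, SE 0.13, adjusted p = 0.0158) fell, and both lost their call without hSRY-OFF replicate 2 and without hSRY-ON replicate 1, where 2 of the 4 calls were left. Foxc2 and Tbx1 were above background on no array. Vegfc, Figf and Flt4 thus stood beside lymphatic markers of mixed direction.

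Cell types that make the ligands were checked in the same way, and their counts stand beside 14.9% higher and 13.9% lower of all tested genes. All 19 cardiomyocyte markers on the array were tested, so the labelled tissue was well marked, and 2 rose and 7 fell (median -0.21), with intensities that summed to 335135 to 353664 per hSRY-OFF heart and 303722 to 329663 per hSRY-ON heart. Myh7, the fetal ventricular myosin, rose by 2.94 (SE 0.18, adjusted p = 8.25e-05 in limma) and Nkx2-5 by 0.68, whereas Pln (-1.47), Tnni3 (-1.13) and Ryr2 (-1.09) fell most. The Ryr2 probe was close to background in hSRY-ON (mean 5.64, detected on 2 of 3 arrays). Its difference ran from -1.19 to -0.38 among the alternative settings, though its call held wherever it was tested. Myh6 fell by 0.51 (SE 0.12, adjusted p = 0.0185), a call lost in 6 of 16 settings (without normalization between arrays, with a replicate block, and without replicate 1 or 2 of either group), and Actn2 differed by 0.13 (SE 0.12). Of these markers, only Pln fell further than Vegfb (-1.25) and the first Vegfa probe (-1.24), while the second Vegfa probe stood at -0.44. The markers ran from -1.47 (Pln) to 2.94 (Myh7), too wide a range for a value inside it to be informative. Fibroblast markers (2 of 11 rose, median 0.05) included Pdgfra (0.41, SE 0.19) and Dcn (-0.30, SE 0.14), which did not pass, although a second Dcn probe was lower by -0.90 and did. Pericyte and smooth muscle markers (3 of 11 rose, 2 fell, median 0.10) included Pdgfrb (-0.43, SE 0.17) and Rgs5 (-0.57, SE 0.25), which did not pass. The intensities of this list summed to 44813 to 50786 per hSRY-OFF heart and 60164 to 64210 per hSRY-ON heart. Acta2 was the brightest of its markers (mean 14.74 in hSRY-OFF and 15.27 in hSRY-ON) and weighed most in the sum. The higher sum therefore does not show a rise across the list. Macrophages can also make Pgf and Vegfa, and 8 of 13 macrophage markers rose and none fell (median 0.93), with intensities that summed to 4762 to 6121 per hSRY-OFF heart and 11033 to 11331 per hSRY-ON heart, while Itgam was above background on no array. The part of these cell types in the values of the ligands was not tested.

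**Figure D5:**
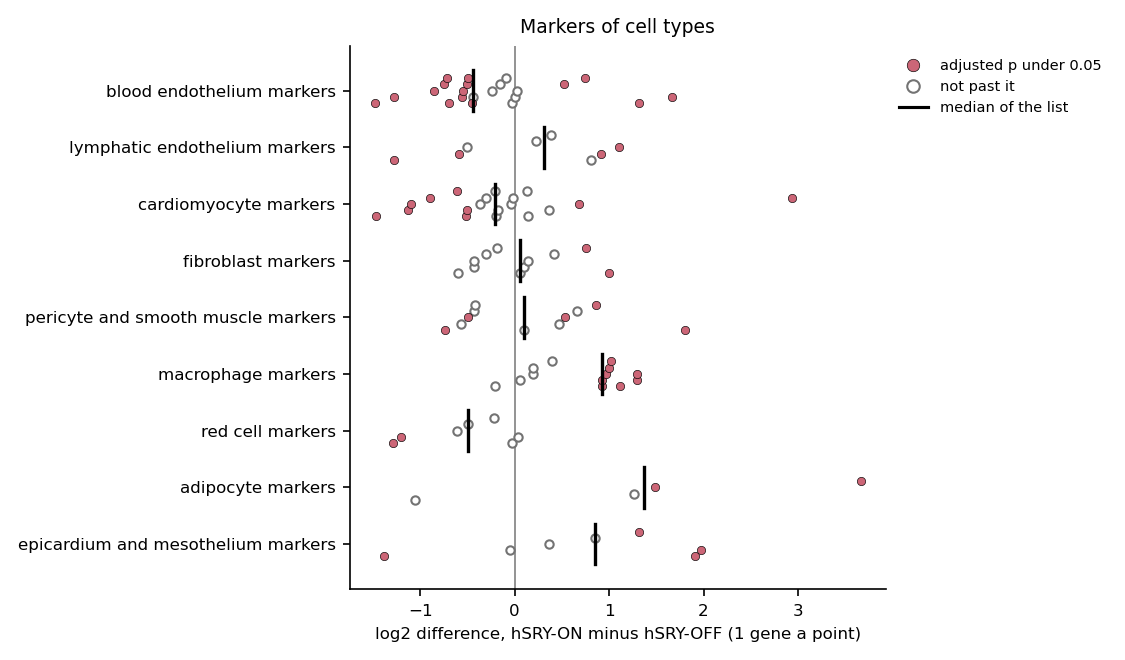
Log2 difference (x axis, hSRY-ON minus hSRY-OFF, 3 hearts a group) of the tested genes of 9 lists of cell type markers (rows), 1 point a gene by its brightest probe. Filled points passed the adjusted p of 0.05 in limma and the black bar is the median of the list, which was -0.44 for blood endothelium and 0.93 for macrophages.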

How the data were processed

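Biotinylated cRNA from the hearts was hybridized to MouseRef-8 BeadChip arrays. The authors deposited linear mean bead intensity values that had not been normalized. They also deposited detection p-values, which set each probe beside negative controls. The labels name limma among the processing tools, the methods name TCC without settings, and the tool behind the bead summary is not given in the sources used here. With R 4.3.3 and limma 3.58.1, intensities were corrected for background (normexp with control parameters inferred from the detection p-values, offset 16), quantile normalized and taken to log2, as neqc does. Probes with a detection p-value under 0.05 on at least 3 of 6 arrays entered lmFit and eBayes with group as the only term, and two-sided p-values were adjusted (Benjamini-Hochberg) across the 12970 probes tested. The steps were tested on simulated data. Lists used the brightest tested probe of each gene, and their symbols missing from the table were not analysed here. Where no array of a group showed a probe above background, a bound is given, taken against the lowest signal among that array's detected probes or its own signal, whichever was higher. The bound compares group means and leaves out sampling error, and such a probe passed the filter through the other group alone.

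Groups came from the sample labels, and no pair of arrays held identical values. The labels do not say that hearts came from separate litters, so p-values measure the spread between these 3 hearts a group. Precision is limited by the number of arrays: with 3 hearts against 3, no two-sided exact permutation test can go below p = 0.1. The genes and lists were chosen with earlier results of these data known. Named are every probe of the ligands and receptors, the called genes with the 3 largest increases and decreases of each list, set defining markers and HIF factors, the 5 closest probes to Pgf and Vegfa, and the neighbours of Pgf in rank; other genes of the signalling list, Cidea, a second Dcn probe and a second Src probe were named after their values were seen. Alternatives were other background corrections, scalings, probe filters, an eBayes trend, a replicate block and leaving out each heart. Promoter sequences came from RefSeq (GRCm38.p6), and the plots used Python 3.11.15 with matplotlib 3.10.9.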

Additional observations from a re-analysis of the deposited data

How the results depend on the processing

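Among the probes of the ligands and receptors, 8 of 11 kept their direction of call in every setting in which they could be fitted. Pgf ranged from 2.89 without background correction to 4.77, and from 4.31 to 4.84 when each heart was left out, and Vegfb ranged from -1.37 to -1.16. Asking for detection on all 6 arrays left 2 called probes of the family in place of 4, because fewer probes were then tested. Leaving out each heart gave 3 to 6 called probes of the family, 2206 to 3669 over all probes (lowest without hSRY-OFF replicate 1), 15 to 33 over the pathway lists in place of 36 and 33 to 49 over the marker lists in place of 51. Without normalization between arrays, 1897 probes were called in place of 3567, the median over all probes was -0.12 and 38.5% of the calls were higher in hSRY-ON in place of 50.1%. Scaling to the median of the detected probes made that share 65.7%, and the cause was not tested. Of 63 named list genes, 33 kept their call throughout, and no result changed sign past the threshold. Probes near background, such as Flt4 and Nrp2, are limited by signal.

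The labels number the replicates 1 to 3 in both groups, but deviations of same-numbered hearts correlated at -0.02, 0.04 and -0.07, so the numbers were not taken to pair hearts. With the replicate number as a block, 2842 probes were called, the same 4 probes of the family among them, 28 genes of the pathway lists and 44 of the marker lists.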

Other observations

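Further growth factors and cell types were measured in the same hearts, and their counts stand beside 14.9% higher and 13.9% lower of all tested genes. Of 9 tested relatives of the platelet-derived growth factor family, which share the fold of the VEGF ligands or the kinase family of their receptors, 1 rose and 1 fell (median difference 0.27). Pdgfc, a mitogen of fibroblasts, rose by 1.10 (SE 0.27, adjusted p = 0.0199 in limma). Kitl, the ligand of the stem cell factor receptor, was above background on no hSRY-ON array and entered the test only through the hSRY-OFF hearts. Its mean was at least 1.43-fold lower in hSRY-ON on the background-corrected scale, a bound that leaves out sampling error. Without background correction the difference of Kitl was -0.26 and did not pass the threshold, and Pdgfc did not pass it with a replicate block. With 1 heart left out, Pdgfc kept its call without hSRY-OFF replicate 2 or hSRY-ON replicate 2 and lost it without any of the other 4 hearts, and Kitl kept its call without hSRY-ON replicate 3, lost it without hSRY-ON replicate 1 or 2 and was not tested without an hSRY-OFF heart. Pdgfa (0.27) and Pdgfb (-0.16) did not pass the threshold.

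Markers of other cell types were counted in the same way. Epicardium and mesothelium markers rose in 3 and fell in 1 of 7 tested, with Krt18 (1.97), Krt8 (1.91) and Krt19 (1.32) higher and Aldh1a2, which makes retinoic acid, lower (-1.38), and all 4 kept their call in every setting. Macrophage markers that rose most were Cd14 (1.30), C1qc (1.12) and Cd163. Cd163 was above background on no hSRY-OFF array and entered the test only through the hSRY-ON hearts. Its mean was at least 1.36-fold higher in hSRY-ON on the background-corrected scale, a bound that leaves out sampling error. Cd14 lost its call without each hSRY-OFF heart and without hSRY-ON replicate 1. Tagln (1.81), Mcam (0.86) and Acta2 (0.53) rose and Abcc9 (-0.74) and Notch3 (-0.49) fell among pericyte and smooth muscle markers, where 2 of the 5 calls were left without hSRY-ON replicate 1 and Tagln kept its call in every setting. Notch3 lost its call in 9 of 16 settings, among them the replicate block and 4 of the 6 hearts left out, and Abcc9 and Acta2 lost theirs in 3 each. Gsn (1.002) and Tcf21 (0.76) rose among fibroblast markers, and both calls were lost without hSRY-OFF replicate 1, that of Gsn also without each of the other hSRY-OFF hearts and without hSRY-ON replicate 1. Red cell markers fell in 2 of 7, Hbb-b1 (-1.29) and Hbb-b2 (-1.20), near-identical globin genes whose probes may share transcripts. Of 10 adipocyte markers, 4 were tested and 2 rose, Ucp1 (3.67, SE 1.07) and Adipoq (1.48), both no longer past the threshold when hSRY-OFF replicate 1 or 2 was left out, likewise hSRY-ON replicate 1 or 3, and Fabp4 was detected on 2 arrays. The hearts of the groups overlapped in Ucp1, which was detected on 1 hSRY-OFF array and spread widely in hSRY-OFF (SD 2.34, n = 3). Cidea, another adipocyte marker, lay lower in every hSRY-ON heart than in any hSRY-OFF heart (-1.05, SE 0.37) and did not pass the threshold, but 1 marker of the list was called lower without background correction, with a normexp offset of 50, without normalization between arrays, with an eBayes trend and without hSRY-ON replicate 1.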
